A study of Homo sapiens with 8 samples.

Results

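The 4 interferon regulatory factor genes IRF1, IRF2, IRF3 and IRF7 and the gene of the basic leucine zipper factor BATF2 were followed through an interferon-beta (IFN-β) time course. Members were chosen by gene symbol, with earlier results of these data known. They numbered 5 of the 20045 genes named on the array, with 8 of its 30111 probes that carry 1 gene symbol. RNA came from U6A cells, a human fibrosarcoma line that lacks STAT2, made to express wild-type STAT2 (WT) or STAT2 with the T387A substitution. Both lines received IFN-β at 100 IU/ml and were sampled at 0, 4, 8 and 24 h, and each of the 8 combinations was measured on 1 array. The labels name neither the way STAT2 was introduced nor whether a line is 1 clone. Untreated arrays at later times were not used here, so time in culture and IFN-β cannot be told apart, and in bulk RNA more RNA per cell and more responding cells cannot be either. The STAT2 level itself was not analysed here.

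Interferon regulatory factors share a DNA-binding domain that recognises GAAA repeats in the promoters of interferon-induced genes. IRF3 and IRF7 are latent factors that sensors of viral nucleic acid activate through phosphorylation, after which they switch on the interferon genes themselves. IRF1 is an activator whose own gene responds quickly to interferons, IRF2 binds the same sites and often opposes it, and BATF2, which has a role beside IRF1 in macrophages, belongs to the AP-1 family and is itself interferon-induced. IRF9, the partner of STAT2 in the factor ISGF3, was used as the other interferon-induced gene of the family.

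The promoters of IRF1 and BATF2, the members that rose and the only ones with a sequence available, are shown with matches to consensus sequences. Binding to these matches was not measured. Each run is the 250 bases before the RefSeq gene start on the minus strand of GRCh38.p14, at chr5:132490774-132491023 for IRF1 and chr11:64990278-64990527 for BATF2. Capitals mark matches to TTCNNNGAA (the GAS element), to the kappaB consensus, and to a pair of GAAA repeats with 3 bases of any kind between them (the core of the interferon-stimulated response element, ISRE, with 1 more base between its repeats).
IRF1: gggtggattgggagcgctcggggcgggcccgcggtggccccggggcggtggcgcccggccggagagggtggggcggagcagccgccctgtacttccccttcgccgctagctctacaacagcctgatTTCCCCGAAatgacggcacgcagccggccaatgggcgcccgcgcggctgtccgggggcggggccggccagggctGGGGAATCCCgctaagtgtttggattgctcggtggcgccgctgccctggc
BATF2: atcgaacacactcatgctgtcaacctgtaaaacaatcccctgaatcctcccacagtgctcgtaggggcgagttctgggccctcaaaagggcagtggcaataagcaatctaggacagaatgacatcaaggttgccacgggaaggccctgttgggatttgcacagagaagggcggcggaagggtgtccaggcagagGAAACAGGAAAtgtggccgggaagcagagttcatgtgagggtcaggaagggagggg
The IRF1 promoter held 1 GAS match, 124 to 116 bases before the start, and 1 kappaB match, 50 to 41 bases before it. The BATF2 promoter held 1 match to the GAAA pair at the wider spacing, 56 to 46 bases before the start. The ISRE core itself, a GAAA pair with 2 bases between, and the AP-1 site TGANTCA had no match in either. Both strands were searched, and the capitals in a sequence do not overlap each other. Over the 35116 promoters of the same length, 6.57% held TTCNNNGAA, 9.96% the kappaB consensus, 2.5% the GAAA pair 3 bases apart, 3.02% the pair 2 bases apart and 6.57% TGANTCA. IRF2, IRF3 and IRF7 had no entry in the promoter table.

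Probe intensities are background-subtracted, linear values that had been equalised between arrays, and 40.2 to 40.3% of probes on each array were above the floor of 10.7, under which a value was treated as not measured. Of 8 fibroblast and mesenchymal markers with a probe, 7 were above the floor on all 8 arrays, among them VIM at 5465.6 to 8641.9, while FN1 was above it on 6. Of 6 epithelial markers 4 were above the floor on no array, CLDN4 on 5 (highest 22.3) and EPCAM on 2 (highest 16.7). Of 7 haematopoietic markers with a probe, PTPRC, CD3E and MS4A1 were above it on none, CD14 on 3 (highest 20.0) and SPI1 and HBB on 1 each. The endothelial markers VWF and CDH5 were above it on none. CD68, listed as haematopoietic, stood at 1335.4 to 3023.2, and PECAM1 at 32.4 to 71.8. No line and time was replicated, so the precision is set by how few the arrays are. Around the fitted effects of time and line the residual SD was 0.319 on the log2 scale for genes with a mean level of up to 50, 0.198 from there to 200 and 0.131 from there to 1000, which makes the SD of a difference between 2 single arrays 0.451, 0.28 and 0.185. Differences between the lines that change with time are part of these residuals and cannot be told apart from array error. The members' own residual SDs were above those of their level classes, at 0.249 for IRF1, 0.316 for BATF2, 0.483 for IRF2 and 0.22 for IRF3. What the p-values measure is the scatter of these arrays around the fit, not that of separate cultures.

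BATF2 rose most among the members. Its probe stood at 9.4 (under the floor), 102.2, 173.5 and 90.9 at 0, 4, 8 and 24 h in WT cells. In T387A cells it stood at 15.3, 231.2, 256.4 and 96.8. All 6 treated arrays lay above both untreated ones, and how many of all genes separate in this way was not counted. The highest level came at 8 h in each line. By 24 h the level was at 52.4% of its peak in WT and at 37.8% in T387A. On single arrays the T387A level was 15.1-, 16.8- and 6.33-fold that at 0 h. In WT it was at least 9.55-, 16.2- and 8.5-fold higher, taken against the floor, since the untreated array lay under it. Over both lines BATF2 rose by 4 h (fitted log2 change 3.59 ± 0.26, SE, 2 arrays against 2, limma adjusted p = 0.0252), by 8 h (4.04 ± 0.26, adjusted p = 0.00981) and by 24 h (2.87 ± 0.26, adjusted p = 0.0224). The size of these fitted changes depends on the floor, and with the floor doubled they were 2.85, 3.30 and 2.13.

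IRF1 was well above the floor before treatment and its rise was smaller. In WT cells it went from 171.9 to 498.6, 580.1 and 381.7. In T387A cells it went from 225.0 to 1067.8, 798.8 and 487.8. The 6 treated arrays again lay above both untreated ones, with the same limit that the share of all genes was not counted. The peak came at 8 h in WT and at 4 h in T387A, and at 24 h the level was 65.8% and 45.7% of the peak. IRF1 rose 3.46-fold by 8 h (1.79 ± 0.21, limma adjusted p = 0.0464). Its estimates at 4 h (1.89 ± 0.21, 3.71-fold, adjusted p = 0.064) and 24 h (1.13 ± 0.21, 2.19-fold, adjusted p = 0.118) did not pass an adjusted p of 0.05.

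IRF2 was dim, and its 2 probes were both highest at 8 h. The brighter probe stood at 12.8, 10.3, 35.9 and 28.1 in WT cells and at 15.7, 22.8, 33.9 and 19.6 in T387A cells. The dimmer probe was above the floor on 4 of 8 arrays, with 19.9 at 8 h in WT and 27.0 at 8 h in T387A as its highest values. At 24 h the probes differed: the brighter one was still above its untreated level in each line, the dimmer one at -0.9 and -6.3. No change of IRF2 passed by limma, with 0.14 ± 0.39 at 4 h, 1.30 ± 0.39 at 8 h (adjusted p = 0.236) and 0.73 ± 0.39 at 24 h. With every probe tested the dimmer one had an estimate of 0.93 ± 0.15 at 8 h (limma adjusted p = 0.103).

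IRF3, the latent factor, stayed within a narrow range. It stood at 98.3, 87.0, 76.6 and 108.5 in WT cells. In T387A cells it stood at 82.8, 70.5, 99.0 and 113.0. Treated and untreated arrays overlapped, and the whole range over the 8 arrays was 0.68 on the log2 scale. The limma estimates were -0.20 ± 0.19 at 4 h, -0.05 ± 0.19 at 8 h and 0.30 ± 0.19 at 24 h, with adjusted p of 0.648, 1 and 0.552.

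IRF7, which interferons induce in many cell types, was not above the floor on any array with any of its 3 probes. The brightest probe read 4.0, 1.2, 9.2 and 8.9 in WT cells and -2.2, 4.2, -3.8 and -4.3 in T387A cells. The other probes ran from -8.0 to 0.6 and from -13.0 to -0.2. These values have no order, since all lie under the floor of 10.7, and IRF7 was not tested. It shared this with 31.9% of the named genes, and a low level of IRF7 RNA and probes that fail to detect it cannot be told apart here.

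**Figure D1:**
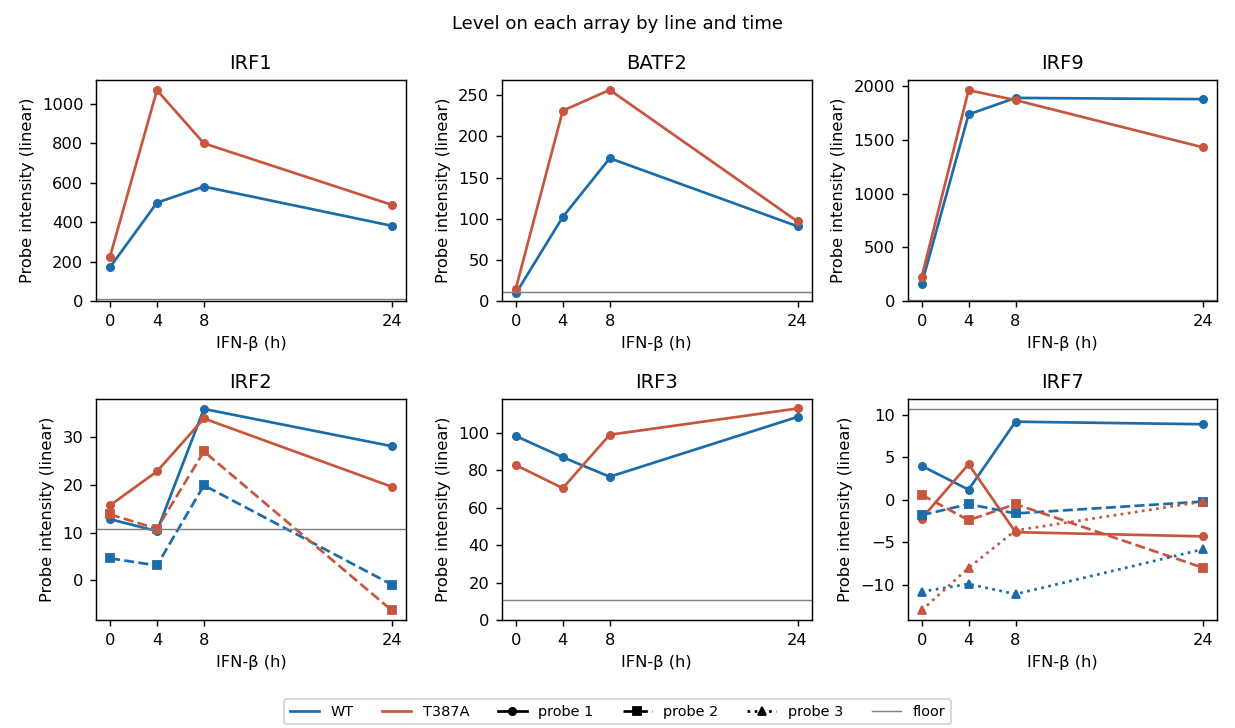
Linear probe intensity (y axis, a scale of its own in each panel) against hours of IFN-β (x axis) in WT (blue) and T387A (red) cells, 1 array per point, with every probe of each gene and the floor of 10.7 as a grey line. IRF1 and BATF2 are higher on every treated array and lower at 24 h than at 8 h, IRF9 stays at 1428.7 or above after 0 h, IRF3 stays between 70.5 and 113.0, and the IRF7 probes stay below the floor.

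Of the 5 members 4 were tested, and 1, 2 and 1 were called higher at 4, 8 and 24 h by limma, where 0.264%, 0.806% and 0.813% of all genes tested were called higher. None was called lower, where 0.0806%, 0.139% and 0.205% of genes were. Because the members were chosen with earlier results of these data known, the shares are a background and not a test. On single arrays 2, 3 and 3 members were at least 2-fold higher than at 0 h in WT cells, where 2.41%, 2.44% and 2.87% of genes were, and 2, 3 and 2 in T387A cells, where 1.79%, 2.31% and 2.51% were. These were IRF1 and BATF2 at every time, joined by IRF2 at 8 h in both lines and at 24 h in WT. With any 1 array left out the BATF2 calls at 4 h and 24 h were lost (adjusted p of 0.132 to 0.236 and 0.0643 to 0.21). At 8 h the BATF2 and IRF1 calls were kept in 1 of 8 such fits each, the one without the WT 4 h array (adjusted p = 0.0404 and 0.0444), and reached 0.266 and 0.313 in the others. Every one of these fits had positive estimates, of 3.19 to 3.98, 4.00 to 4.09 and 2.54 to 3.21 for BATF2 at the 3 times and of 1.54 to 2.24, 1.67 to 1.92 and 0.99 to 1.28 for IRF1. Leaving out an array also leaves fewer residual degrees of freedom.

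**Figure D2:**
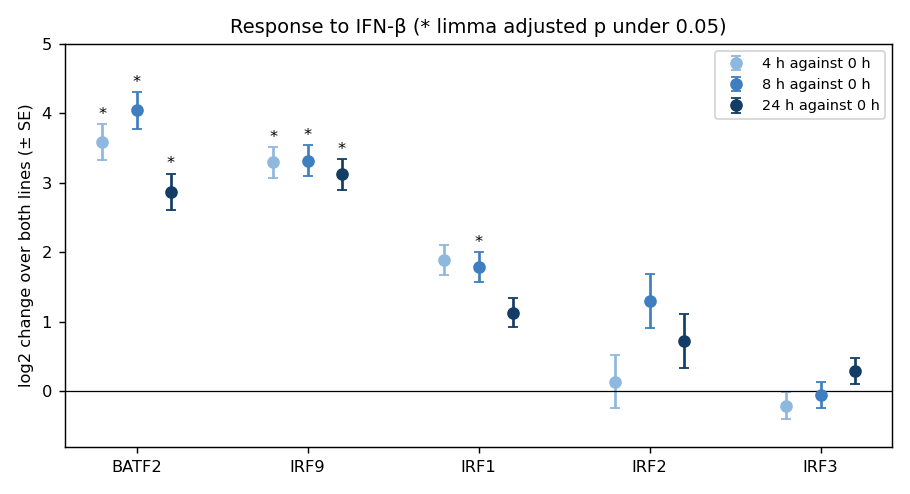
Log2 change over both lines (y axis) at 4, 8 and 24 h against 0 h for BATF2, IRF9, IRF1, IRF2 and IRF3 (x axis), as limma estimates with bars of ± 1 SE from 2 arrays against 2, with asterisks where the adjusted p was under 0.05. BATF2 has the highest point at 8 h (4.04), IRF9 is nearly level at 3.12 to 3.32, and IRF3 lies within 0.30 of 0.

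IRF1 and BATF2 were lower at 24 h than at 8 h in both lines, whereas IRF9 was near its plateau in WT. BATF2 differed by -1.17 ± 0.26 between these times (2.25-fold, unadjusted p = 0.00659, limma adjusted p = 0.177) and IRF1 by -0.66 ± 0.21 (adjusted p = 0.259). The estimate for IRF9 was -0.20 ± 0.22, and its 24 h level was 99.4% of the peak in WT and 72.9% in T387A. This comparison, chosen after the values were seen, called 0 of 13656 genes by limma (0%, with 2067 at an unadjusted p under 0.05), and 104 with a trended and robust prior. Against 4 h the 24 h estimates were -0.71 ± 0.26 for BATF2 and -0.76 ± 0.21 for IRF1 (adjusted p = 0.228 and 0.148), where 0.308% of genes were called lower. Differences between genes in their course were not tested.

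IRF1 and BATF2 stood higher in T387A than in WT cells on each pair of arrays, with the widest gap at 4 h. IRF1 differed by 0.39, 1.10, 0.46 and 0.35 on the log2 scale at 0, 4, 8 and 24 h. BATF2 differed by 0.52 (with the WT array at the floor), 1.18, 0.56 and 0.09. The BATF2 gap at 24 h is smaller than the SD of 0.28 between 2 single arrays for genes of its mean level. At 4 h the gap was 2.14-fold for IRF1 and 2.26-fold for BATF2. IRF2 stood at 10.3, under the floor, against 22.8 at that time, at least 2.13-fold apart, so that 3 members passed 2-fold at 4 h with T387A the higher line, as 1.63% of genes did, and 0 at 0, 8 and 24 h, where 1.33%, 0.864% and 2.15% did. The gap at 4 h was not particular to the members. Among other genes that rose, picked after their values were seen, RIGI stood at 161.5 in WT and 369.6 in T387A. GBP1 stood at 327.7 and 764.3 and IFIT2 at 2024.6 and 4715.2, but IRF9 at 1735.8 and 1960.4. How many of the genes that rose had such a gap was not counted.

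The other members did not hold a side. IRF3 differed by -0.25, -0.30, 0.37 and 0.06 and IRF2 by 0.29, 1.09, -0.08 and -0.52. IRF9, which rose as early as BATF2, differed by 0.49, 0.18, -0.02 and -0.39, from higher in T387A at 0 h to higher in WT at 24 h. Over the 4 times the T387A minus WT estimates were 0.58 ± 0.15 for IRF1 and 0.59 ± 0.18 for BATF2 (limma adjusted p = 0.348 and 0.388). They were 0.20 ± 0.27 for IRF2 and -0.03 ± 0.13 for IRF3. IRF1 and BATF2 were each higher in 4 of 4 pairs, and the share of all genes higher in every pair was not counted. No gene was called in this comparison (0 of 13656 by limma, or 0%, with 1496 at an unadjusted p under 0.05), and the difference of the responses of the lines had estimates of 0.25 ± 0.39 for IRF1 and 0.09 ± 0.52 for BATF2 (adjusted p = 0.931 and 0.972), also with 0 genes called by limma (0%, with 1087 at an unadjusted p under 0.05).

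**Figure D3:**
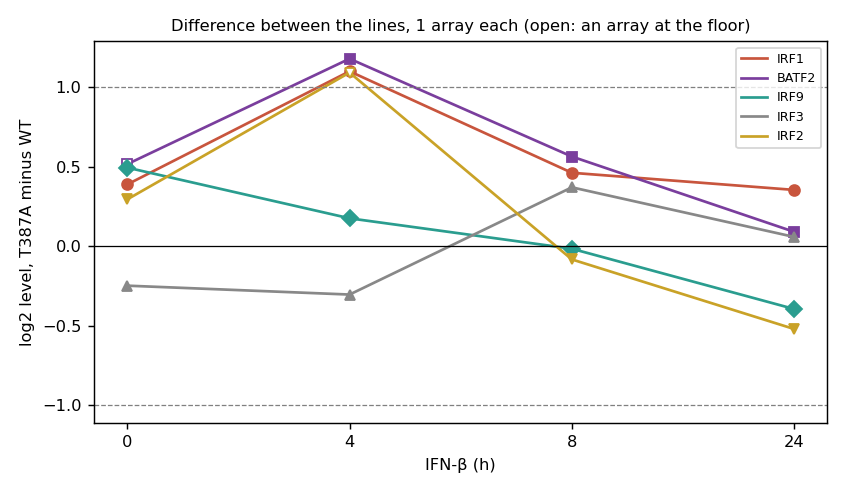
Log2 level in T387A minus WT (y axis) at 0, 4, 8 and 24 h of IFN-β (x axis, evenly spaced), 1 array per line and time and so no error bars, with dashed lines at 2-fold and open symbols where an array was at the floor. IRF1, BATF2 and IRF2 lie above 1 at 4 h, while IRF9 goes from 0.49 to -0.39.

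Among the other genes of the family only IRF9 was called. It stood at 158.5, 1735.8, 1889.0 and 1877.5 in WT cells and at 223.2, 1960.4, 1868.7 and 1428.7 in T387A cells, and rose by 3.29, 3.32 and 3.12 at 4, 8 and 24 h (SE 0.22 each, limma adjusted p = 0.0225, 0.0099 and 0.012). Of the list of other IRF genes and IRF2-binding proteins 7 were tested and 1 was called higher at each time. Over all genes tested 0.264%, 0.806% and 0.813% were called higher. The medians of the list were 0.02, 0.12 and -0.02 beside 0 for all genes. IRF4, IRF5 and IRF8, known from immune cells, stayed at or under 20.8. The corepressor IRF2BP2 had an estimate of -0.53 ± 0.09 at 24 h (limma adjusted p = 0.103) and its relative IRF2BPL of 0.15 ± 0.12.

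Relatives and AP-1 partners of BATF2 were not called. Of 9 tested, 0 passed by limma at 4, 8 or 24 h, where 0.264%, 0.806% and 0.813% of all genes tested were called higher. With so few genes, 0 called cannot be told apart from these shares. The medians were -0.04, 0.08 and 0.17 beside 0 for all genes. BATF3, a leucine zipper factor of the same subfamily, stood at 39.6 and 76.7 untreated and at 65.2 to 90.7 on treated arrays, with 0.48 ± 0.28 at 4 h. JUN, an AP-1 subunit that pairs with BATF proteins, stayed between 1104.8 and 1318.6, and at 24 h the AP-1 subunits JUND and FOSL1 had estimates of 0.19 ± 0.09 and 0.46 ± 0.13. JDP2, a repressor of the AP-1 family, had estimates of -0.40 ± 0.11 at 8 h and 0.25 ± 0.11 at 24 h (limma adjusted p = 0.207 and 0.414). ATF3, also of this list, had larger estimates of 0.92 ± 0.28 at 4 h and 0.78 ± 0.28 at 8 h (limma adjusted p = 0.205 and 0.296). Its estimate at 24 h was 0.05 ± 0.28.

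In the pathway that activates IRF3 and IRF7, the cytosolic RNA sensors RIG-I and MDA5 were the genes called against 0 h. Of 17 tested 2 were called higher at each of 4, 8 and 24 h by limma, where 0.264%, 0.806% and 0.813% of all genes tested were. The medians of the list were 0.10, 0.15 and 0.27 beside 0 for all genes. RIGI rose by 4.18, 5.55 and 4.52 and IFIH1, which encodes MDA5, by 3.905, 5.29 and 4.73. The kinase gene TBK1 stood at 336.9 to 456.9 over the 8 arrays, with 0.31 ± 0.09 at 24 h (limma adjusted p = 0.262). The DNA-sensing adaptor STING1 had an estimate of 0.57 ± 0.14 at 24 h (adjusted p = 0.195), and the endosomal receptor TLR3, under the floor untreated in WT, one of 2.43 ± 0.35 (adjusted p = 0.0692). DDX3X, an RNA helicase named here after its values were seen, fell by 1.015 between 4 h and 24 h (SE 0.12, adjusted p = 0.0466). Between these times 0.308% of genes tested were called lower. Calls depended on the settings, with 8 genes called with every probe tested and 722 with a trended and robust prior. The DDX3X call was not kept with any 1 array left out.

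Of 8 genes that restrain IRF proteins, 1 was called higher at 4 h and 8 h and 2 at 24 h by limma. Over all genes tested 0.264%, 0.806% and 0.813% were called higher at these times. The medians of the list were -0.12, 0.20 and -0.14 beside 0 for all genes. TRIM21, a ubiquitin ligase of IRF3 and IRF7, went from 57.1 to 272.4, 442.2 and 233.1 in WT cells and from 68.4 to 471.8, 652.0 and 296.1 in T387A cells. It rose by 2.52 ± 0.16, 3.10 ± 0.16 and 2.07 ± 0.16 (adjusted p = 0.0199, 0.00504 and 0.0129). RBCK1, a ligase that targets IRF3, rose by 0.74 ± 0.09 at 24 h (adjusted p = 0.0405). FOXO3, a repressor of the IRF7 gene in mouse macrophages, and STUB1 had estimates of -0.12 ± 0.17 and -0.16 ± 0.10. Of 19 interferon genes, a family that includes targets of IRF3 and IRF7, 4 were above the floor on any array. None of them was above 20.4, and 0 were called by limma.

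Of the genes listed as IRF1 targets, many of which other interferon-activated factors also bind, 22 were tested, and 1 was called higher at 4 h, 6 at 8 h and 9 at 24 h by limma. Over all genes tested the number called higher also went from 36 (0.264%) at 4 h to 110 (0.806%) and 111 (0.813%). The medians of the list were 0.54, 1.54 and 1.36 beside 0 for all genes, with values under the floor set to it. Like the members, the list was chosen with earlier results of these data known, so its counts and medians do not test it. TAP1, the peptide transporter, stood at 224.2, 588.1, 1563.7 and 1739.4 in WT cells and at 284.7, 1263.0, 2729.3 and 2161.7 in T387A cells. GBP1, a guanylate-binding protein, rose by 4.22 ± 0.34 at 8 h and 2.98 ± 0.34 at 24 h. The exonuclease gene ISG20 had an estimate of 0.63 ± 0.30 at 4 h and rose by 2.92 ± 0.30 at 24 h (adjusted p = 0.0282). CXCL10, under the floor untreated in both lines, stood at 120.9 and 122.4 at 8 h and 24 h in WT and at 480.3 and 373.6 in T387A, and rose at both times (adjusted p = 0.0468 and 0.049).

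Between 4 h and 24 h 3 of the 22 were called higher and 0 lower, where 0.71% and 0.308% of genes were. These were the immunoproteasome subunits PSMB8 (1.03 ± 0.12) and PSMB9 (1.79 ± 0.21) and B2M (1.125 ± 0.10), the light chain of HLA class I, named after their values were seen (adjusted p = 0.0466, 0.0466 and 0.0427). The number of genes called in this comparison was 8 with every probe tested and 722 with a trended and robust prior. With any 1 array left out these calls were not kept. Of the 22 genes 21 had positive T387A minus WT estimates over the 4 times, and 0 were called by limma. Their median was 0.54 beside 0.00029 for all genes. All 22 estimates come from the same arrays, so they are not separate results. The share of all genes with a positive estimate was not counted.

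**Figure D4:**
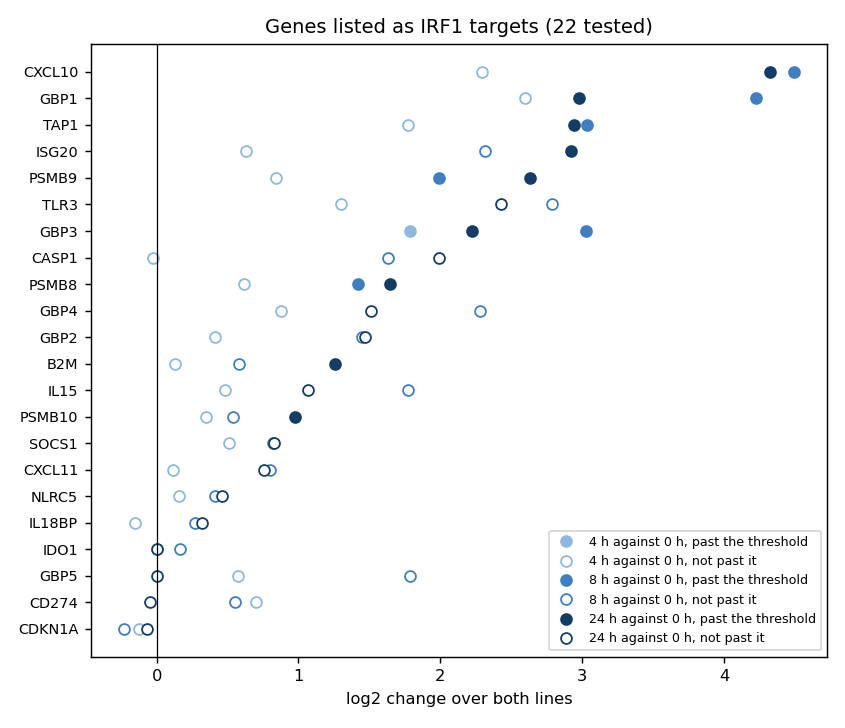
Log2 change over both lines (x axis) at 4, 8 and 24 h against 0 h for the 22 tested genes listed as IRF1 targets (y axis), as limma estimates, filled where the adjusted p was under 0.05. At 4 h 1 gene is filled, at 8 h 6 and at 24 h 9. The PSMB8, PSMB9 and B2M points lie further right at each later time, as do those of other genes, among them ISG20 and PSMB10.

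The genes with the course most like that of BATF2 over the 8 arrays were TRIM21 (Pearson r 0.995 of log2 levels), TENT5A (0.989), IFIT2 (0.987), RND3 and HELZ2 (0.984 each), of 1834 genes eligible. Those most like IRF1, of 1765 eligible, were SLC25A28 and TENT5A (0.978 each), MOB3C (0.969), PTGS2 (0.966) and ATF5 (0.961). TENT5A, a non-canonical poly(A) polymerase, stood at 297.3, 638.4, 813.5 and 635.1 in WT cells and at 302.1, 1103.9, 1035.3 and 685.5 in T387A cells. SLC25A28, a mitochondrial iron transporter, peaked at 802.7 in WT and at 1196.6 in T387A. The genes nearest to IRF2, of 1873, were dim like it: SCN2A (0.96), LZTS2 (0.956), UBE2D3-AS1 (0.933), HDAC6 (0.925) and EDARADD (0.896), none above 78.3 on any array. The points are the same 8 arrays for every gene, so shared array effects enter each r, and IRF3 varied too little for the same search.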

How the data were processed

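Total RNA of the 8 cultures was labelled with biotin and measured on Illumina bead arrays, per the labels. Each probe's intensity was used on the linear scale of the deposited table. The submitters' processing notes name GenomeStudio without version or settings. Background subtraction and equalisation between arrays were read from the deposited intensities themselves: 28.6% lay at or below 0, and 78.6% of ranks held the same value on every array.

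Groups came from the sample titles. Probes with 1 symbol in the platform's annotation were used, and the probe with the highest mean stood for a gene. A floor of 10.7 replaced lower values before log2 was taken, and the 13656 genes above it on at least 1 array were tested with limma 3.58.1 in R 4.3.3 (lmFit, eBayes, Benjamini-Hochberg over all genes). Time as 4 levels plus line was fitted to all arrays; the difference of the responses added line by treatment, so that each untreated arm is 1 array assumed to vary like the others. The fits were tested on simulated data. Other genes were named by list, as the up to 4 largest changes at 24 h past the threshold or else with a mean over 50, or by correlation with a member of log2 range of at least 1. IRF4, IRF5, IRF8, JUN, TBK1, ATF3 and PSMB10 were named after their values were seen. The members and lists were chosen with earlier results of these data known. Promoter sequences are from RefSeq (GRCh38.p14).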

Additional observations from a re-analysis of the deposited data

How the results depend on the processing

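BATF2 kept positive estimates against 0 h under the 8 settings other than leaving out an array, and kept its calls except at 4 h and 24 h without the line term (no replicate block, adjusted p = 0.0581 and 0.0522). Its log2 rises were 1.996, 2.36 and 1.43 with an offset of 16 in place of the floor, which shrinks the changes of dim genes by construction. IRF1 at 8 h missed the threshold without the replicate block (0.149), with every probe tested (0.0526) and with the added floor of 5 (0.0916), and at 4 h passed in 4 of 8 settings, with adjusted p from 0.0011 to 0.118. At 24 h IRF1 (0.118) passed in 2 of 8, with the offset (0.0185) and with the trended and robust prior (0.0307). No IRF2 or IRF3 estimate passed in any setting. Estimates that changed sign were -0.10 for IRF2 in T387A against wild type with the floor doubled and -0.0922 for BATF2 in the difference of the responses with the floor of 5. With 1 array left out, the BATF2 difference of the responses ran from -0.19 to 0.35, and for IRF2 the estimates ran from -0.46 to 0.74 (4 h against 0 h), -0.0096 to 1.18 (24 h against 4 h), -0.10 to 0.43 (T387A against wild type) and -0.60 to 0.21 (difference of the responses). For IRF3 they ran from -0.32 to 0.22 (8 h against 0 h) and -0.164 to 0.0604 (T387A against wild type).

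The number of genes called depended on the settings, and the cause was not tested. At 4 h against 0 h it was 47, and 292 with the floor doubled, 259 with the offset, 85 with at least 4 arrays above the floor, 350 with the trended and robust prior and 15 without the replicate block. At 8 h it was 129, and 257, 270 and 300 with the doubled floor, the offset and the prior; at 24 h it was 139, and 264, 270 and 275. At 24 h against 4 h it was 139, and 579, 525, 254 and 722 in the order given for 4 h, 8 with every probe tested and 21 without the replicate block. At 24 h against 8 h it was 0, and 64 with the offset, 104 with the prior and 1 each with 4 arrays above the floor and without the block. T387A against wild type gave 0, and 1 with the doubled floor, 7 with the offset, 1 with 4 arrays above the floor and 2 with the prior. The difference of the responses gave 0, and 102 without time levels. With 1 array left out the counts ran from 0 to 33 at 8 h, from 0 to 30 at 24 h and were 0 in the other comparisons. The difference of the responses could not be fitted without an untreated array. No paired analysis was possible because each line and time holds 1 array and the titles number no replicates; the line term stands in the main fit in its place. The floor of 5 and the comparison of 24 h with 8 h were chosen after seeing the data. IRF7 and the dimmer IRF2 probe are limited by signal over background.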
